A study of Mus musculus with 6 samples.

Results

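Fatty acid beta-oxidation is described here through the transcripts of 35 genes of its mitochondrial and peroxisomal branches in mouse cardiomyocytes with and without the transcription factor TFEB. The genes were chosen by name, as the shuttle, the enzymes and the transporters of the pathway. Earlier results of these data were known when they were chosen. All 35 were found among the 46450 gene symbols of the deposited table, and all 35 were among the 12437 genes with enough transcript to be tested. None passed only through the group in which it was higher, since each was at 3 CPM (counts scaled to a fixed library total) or more in every library. By place, 23 act in mitochondria and 10 in peroxisomes, and Eci2 and Acad11 were set apart because their place is shared or disputed.

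The study isolated cardiomyocytes, the contractile cells of heart muscle, from C57BL/6 mice aged 3 months that were wild type (WT) or TFEB-/-, with 3 libraries of each genotype. TFEB is a transcription factor that switches on lysosomal and autophagy genes, and the title of the study names lipid metabolism. No treatment is given in the labels, and neither are the design of the deletion, the driver of a Cre if there was one, the sex of the mice, their litters, or whether a library came from 1 mouse. The p-values below therefore measure the spread between these libraries, which may be in part technical. Poly(A) RNA was sequenced with a stranded kit, and the deposited values are CPM rounded to whole numbers, with the number of reads behind them unknown.

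In a heart cell most ATP comes from fatty acids. Long chains enter mitochondria as carnitine esters through the CPT1 and CPT2 transferases, and malonyl-CoA, which malonyl-CoA decarboxylase removes, blocks the first of these. Inside, acyl-CoA dehydrogenases, a hydratase, a hydroxyacyl-CoA dehydrogenase and a thiolase shorten the chain in repeated turns, and the electrons of the first step reach the respiratory chain through the electron transfer flavoprotein. Peroxisomes shorten very long and branched chains with an oxidase in place of the first dehydrogenase, and hand shorter products on to mitochondria.

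Upstream sequences of 3 genes show what lies before the start sites of genes on which the values below turn. The stretch between Hadha and Hadhb, the subunit genes of the trifunctional protein that point away from each other, precedes the most abundant transcript of the set per length. Mlycd, for malonyl-CoA decarboxylase, passed the test once libraries were rescaled. Acadvl, for very long chain acyl-CoA dehydrogenase, lay lowest of its class. All are from RefSeq's promoter table (GRCm38.p6), cut to bases that no annotated GENCODE exon covers and written 5′ to 3′ on the strand of the gene. Capitals mark a CCAAT box (CCAAT) or a GC box (GGGCGG) on either strand.
Hadhb, chr5:30155163-30155247, plus strand: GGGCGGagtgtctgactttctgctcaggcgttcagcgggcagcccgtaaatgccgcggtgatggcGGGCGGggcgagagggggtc
Mlycd, chr8:119394644-119394877, plus strand: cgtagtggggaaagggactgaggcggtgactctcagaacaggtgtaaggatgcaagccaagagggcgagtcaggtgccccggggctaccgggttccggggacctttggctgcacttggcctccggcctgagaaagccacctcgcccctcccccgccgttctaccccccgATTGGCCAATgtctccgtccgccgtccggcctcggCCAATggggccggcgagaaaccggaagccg
Acadvl, chr11:70015429-70015678, minus strand: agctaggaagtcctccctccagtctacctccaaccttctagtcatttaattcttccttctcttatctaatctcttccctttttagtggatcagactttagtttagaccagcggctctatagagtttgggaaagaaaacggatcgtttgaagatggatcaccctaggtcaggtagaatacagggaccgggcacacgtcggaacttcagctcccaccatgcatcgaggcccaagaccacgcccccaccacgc

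The Hadhb stretch held 2 GC boxes, the Mlycd stretch held 3 CCAAT boxes, and the Acadvl stretch held neither. The RefSeq start sites of Hadha and Hadhb lay 273 bases apart on chromosome 5. The table had entries for 28 of the 35 genes, in 29 windows that ran from 250 bases before to 50 bases after a start. Abcd2, Acaa2, Acad9, Cpt1b, Crat, Decr1 and Hsd17b4 had no entry. The E-box core CACGTG was in 0 of the 29 windows and in 7.15% of all 32851 windows of the table. The longer palindromic TFEB motif, which contains that core, was in 0 of 29 and in 0.326% of all. A PPAR response element (a direct repeat with a single spacer base) was in 0 of 29 and in 0.0396% of all, and an estrogen-related receptor element, TCAAGGTCA, in 0 of 29 and in 0.423%. CCAAT was in 12 of the 29 windows (41.4%) and in 37.4% of all, and GGGCGG in 20 (69%) and in 35.7% of all. Both strands were read, and an absent match says only that these letters are not in these windows.

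Tfeb was lower in every TFEB-/- library. It was at 17, 30 and 23 CPM in WT and at 6, 5 and 7 CPM in TFEB-/-. Its log2 fold change was −1.85 (limma, SE 0.24, adjusted p = 0.0267). By exact permutation of the genotypes, two-sided, p was 0.1, which is as small as 3 libraries against 3 can give. Without any 1 library other than the first WT one, Tfeb no longer passed (limma adjusted p 0.0604 to 0.116). A value per gene does not show whether the deleted part is missing. Transcripts of the mitochondrial genome made up 30.7, 33.9 and 44.6% of the WT libraries and 22.2, 30.3 and 25.3% of the TFEB-/- libraries. Every WT library was above every TFEB-/- library, narrowly at 30.7 against 30.3%, and the third WT library stood above the rest. Over all tested genes, the log2 fold change had a median of 0.24 on the deposited scale and 0.01 after each library was divided by its median ratio to the mean library (median-ratio scaling). Changes are therefore given also relative to the median of all genes. A relative log2 fold change below means the gene's own minus that median, 0.24 on the deposited scale. With another scaling or a library left out, the median of that setting was taken. On the deposited scale 552 genes, 4.44% of those tested, passed an adjusted p of 0.05, and with median-ratio scaling 5.48% did.

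The labelled cell type was plain in the data. The 10 cardiomyocyte markers summed to 54246 to 73771 CPM in WT and to 65502 to 88831 CPM in TFEB-/-. Markers of other cells were present at low levels. The 11 endothelial markers summed to 300 to 416 and 299 to 330 CPM, with 10 of 11 below the median of all genes. The 10 macrophage markers summed to 20 to 31 and 43 to 52 CPM, with Ptprc at 0 in all libraries and the 8 tested ones above the median. Fibroblast markers (9) summed to 109 to 132 and 123 to 169 CPM, mural markers (7) to 232 to 276 and 306 to 392 CPM, and red cell markers (5) to 5 to 35 and 6 to 10 CPM, with Alas2 at 0. Of the mural markers 5 of 7 lay below the median. Acta2 was at 66, 118 and 70 CPM in WT and at 161, 233 and 185 CPM in TFEB-/- (limma adjusted p = 0.0876). Cspg4, also mural, was at 10, 12 and 11 against 29, 21 and 21 CPM. It passed on both scales (limma adjusted p = 0.0374, and 0.0239 with median-ratio scaling). Pdgfra, of fibroblasts, passed on the deposited scale only, at 2 CPM in each WT and 3 CPM in each TFEB-/- library (limma adjusted p = 0.00336). These values, rounded to whole CPM, have an SD of 0 in both groups, so that p says little. With median-ratio scaling Pdgfra did not pass (limma adjusted p = 0.336). Cldn5, endothelial, was lower with median-ratio scaling only (limma adjusted p = 0.0210). Adipocyte markers (6) summed to at most 2 CPM in any library, and Plin1, Retn, Lep and Ucp1 were at 0. In RNA from many cells, fewer cells of a type and less RNA per cell cannot be told apart, and the part of these cells in the results below was not tested.

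Per kilobase of transcript, the mitochondrial spiral was the abundant branch in WT cardiomyocytes. Hadhb, which carries the thiolase of the trifunctional protein, led with 841 ± 79.5 CPM per kb (mean ± SD, n = 3, as throughout). Etfb, the beta subunit of the electron transfer flavoprotein, followed with 641 ± 117 CPM per kb, and Acaa2, the mitochondrial ketoacyl-CoA thiolase, with 554 ± 63.3 CPM per kb. Acadl, Acadm and Acadvl, the dehydrogenases for long, medium and very long chains, were next at 483 ± 57.2, 448 ± 56.1 and 429 ± 58.2 CPM per kb. In this order each gene's libraries overlapped those of the next. Phyh, which starts the alpha-oxidation of phytanic acid, was the most abundant peroxisomal gene at 341 ± 39.8 CPM per kb, in place 9 of 35. The lowest levels were those of Ehhadh at 2.57 ± 0.387, Acad10 at 1.13 ± 0.151 and Abcd2 at 0.663 ± 0.104 CPM per kb. Of the CPT1 isoforms, the muscle form Cpt1b was at 221 ± 17.5 and the liver form Cpt1a at 4.02 ± 0.354 CPM per kb.

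**Figure D1:**
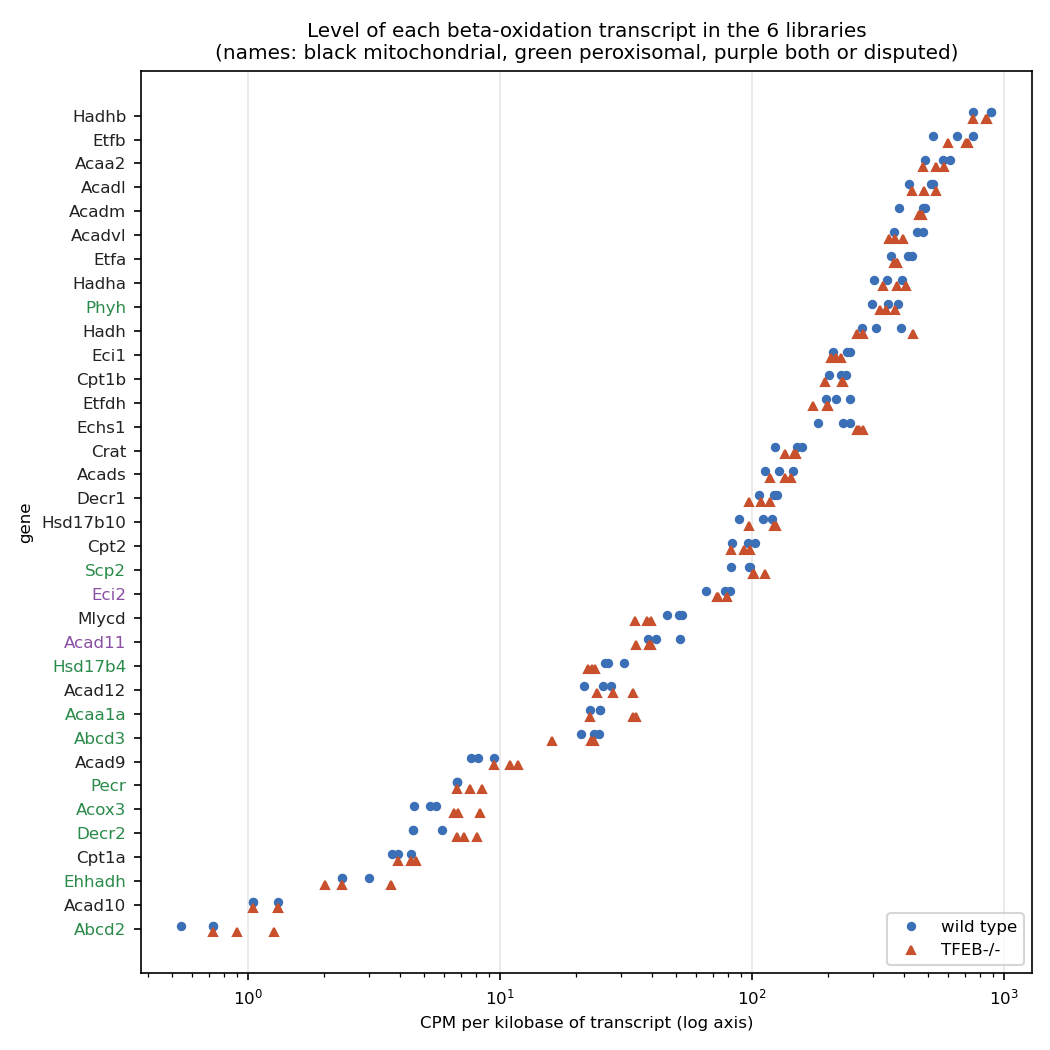
Levels of the 35 genes in the 6 libraries, in CPM per kilobase of transcript on a log axis, ordered by the WT mean; circles are WT and triangles TFEB-/- libraries, and name colors give the place in the cell. Hadhb stands highest at a WT mean of 841 CPM per kb and Abcd2 lowest at 0.663.

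On the deposited scale, no gene of the pathway passed the test in either direction. Of the 35, 0 were higher and 0 lower by limma at an adjusted p of 0.05, against the 4.44% of all genes. At an unadjusted p below 0.05, 3 were higher (Acad9, Acox3 and Decr2), beside 21.1% of all genes, and 2 were lower (Mlycd and Hsd17b4), beside 2.3%. With median-ratio scaling 0 were higher and 2 fell, Mlycd and Hsd17b4, beside 1.61% of all genes that fell. At an unadjusted p below 0.05 that scale had 2 of the 35 higher, beside 12.5% of all genes, and 12 lower, beside 9.79%. Most of the pathway nevertheless lay on 1 side of the other genes. Relative to the median of all genes, 29 of 35 were below and 6 above, with a median of −0.22 on the log2 scale. This count was the same with median-ratio scaling. Genes that share a library share its scale, so these are not independent observations.

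How many genes had groups that did not overlap turned on the scale. On the deposited scale the TFEB-/- libraries were all above the WT libraries for 4 genes (Echs1, Acox3, Scp2 and Decr2), beside 21.2% of all tested genes. They were all below for 2 (Mlycd and Hsd17b4), beside 2.28% of all. With median-ratio scaling they were all above for 2 genes (Acox3 and Decr2), beside 14.3% of all, and all below for 17, beside 11.8% of all. Of these 17, 13 were mitochondrial, 2 peroxisomal (Abcd3 and Hsd17b4) and the remaining ones Eci2 and Acad11.

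**Figure D2:**
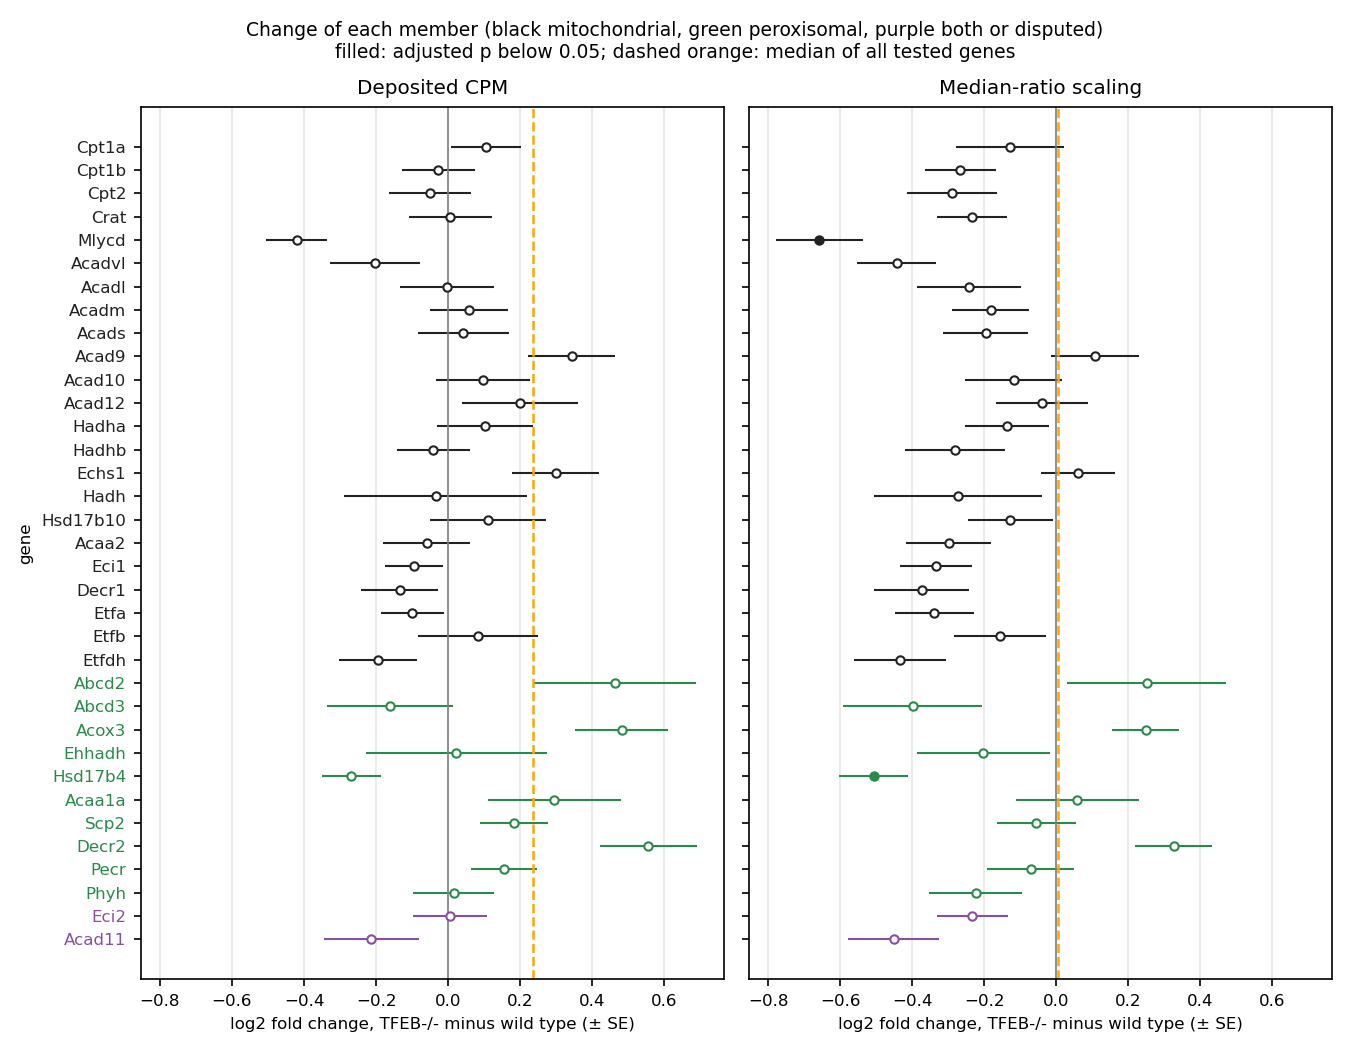
Log2 fold change of TFEB-/- over WT for each of the 35 genes with its standard error, on the deposited scale (left) and with median-ratio scaling (right), colored by place in the cell; filled points passed an adjusted p of 0.05 and the dashed line is the median of all tested genes, 0.24 and 0.01. Of the 35 points, 29 lie left of the line in either panel.

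The carnitine shuttle was represented by 5 genes, and all 5 lay below the median of all genes, with a median relative log2 fold change of −0.26. Mlycd (ENSMUSG00000074064; chromosome 8, 119394878 to 119411102, plus strand), whose upstream stretch with 3 CCAAT boxes is shown above, was the lowest. It was at 112, 109 and 98 CPM in WT and at 73, 81 and 84 CPM in TFEB-/-. All TFEB-/- libraries were below all WT libraries. Mlycd averaged 106 ± 7.37 CPM in WT and 79.3 ± 5.69 CPM in TFEB-/-, and its log2 fold change was −0.42 (SE 0.08, limma adjusted p = 0.0698). With median-ratio scaling the libraries were at 110.0, 117 and 120 against 61.7, 79.7 and 79.1, and Mlycd fell by 0.66 on the log2 scale (limma adjusted p = 0.0246). With 1 library left out as well, it passed only without the second TFEB-/- library (limma adjusted p = 0.0364).

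Cpt1b, the muscle transferase that malonyl-CoA inhibits, was at 680, 654 and 582 CPM in WT and at 655, 562 and 664 CPM in TFEB-/-. The groups overlapped, and the log2 fold change was −0.03 (SE 0.10, limma adjusted p = 0.906). With median-ratio scaling it was −0.27 (limma adjusted p = 0.172), with no overlap. Cpt2, the inner membrane transferase, Crat, which makes carnitine esters of short chains, and Cpt1a had relative log2 fold changes of −0.29, −0.23 and −0.13. Without the third WT library that of Cpt1a was 0.027. The Cpt1b region also carries an annotated readthrough gene, so reads of the pair may not have been split cleanly.

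The 7 acyl-CoA dehydrogenases take the first step of each turn, and 6 of them lay below the median of all genes, with a median relative log2 fold change of −0.18. Acadvl was farthest from it. Acadvl (ENSMUSG00000018574) was at 1028, 976 and 788 CPM in WT and at 796, 755 and 862 CPM in TFEB-/-. Only the third WT library reached into the TFEB-/- range. The log2 fold change was −0.20 (SE 0.12, limma adjusted p = 0.366). With median-ratio scaling the libraries were at 1010, 1044 and 964 against 672, 742 and 811, with no overlap. The change was then −0.44 (SE 0.11, limma adjusted p = 0.0657), and with CPM recomputed without transcripts of the mitochondrial genome it passed (limma adjusted p = 0.0384).

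Acadl, the dehydrogenase of the class with the highest level per kilobase, was at 984, 995 and 800 CPM in WT and at 823, 921 and 1026 CPM in TFEB-/-. These groups overlapped fully, with means of 926 ± 109.5 and 923 ± 101.5 CPM. After median-ratio scaling Acadl was at 967, 1065 and 979 against 695, 906 and 966, just apart, with a log2 fold change of −0.24 (SE 0.14, limma adjusted p = 0.378). Acadm, Acads, Acad10 and Acad12 had relative log2 fold changes of −0.18, −0.19, −0.14 and −0.04. That of Acad12 was 0.044 without the first and 0.042 without the second TFEB-/- library. Acad9, which also serves the assembly of complex I, was the 1 dehydrogenase above the median. It was at 32, 37 and 30 CPM in WT and at 46, 43 and 37 CPM in TFEB-/-, with a shared value of 37 and a log2 fold change of 0.34 (SE 0.12, limma adjusted p = 0.187). Its relative value with median-ratio scaling was −0.00019 without the first WT library.

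Of the 6 genes of the hydratase, dehydrogenase and thiolase steps, 5 lay below the median of all genes. Hadhb was at 1822, 1812 and 1535 CPM in WT and at 1537, 1748 and 1729 CPM in TFEB-/-. The groups overlapped through the third WT library, and the log2 fold change was −0.04 (SE 0.10, limma adjusted p = 0.824). The groups did not overlap with median-ratio scaling, and the change was −0.28 (limma adjusted p = 0.281). Hadha, its partner across the shared upstream stretch, was at 1572, 1370 and 1220 CPM in WT and at 1505, 1321 and 1635 CPM in TFEB-/-, with overlap on both scales. Acaa2 was the farthest below in the class. It was at 865, 921 and 734 CPM in WT and at 815, 723 and 876 CPM in TFEB-/-, a relative log2 fold change of −0.30 (limma adjusted p of the change = 0.786). Its groups overlapped on the deposited scale and were apart, lower in TFEB-/-, with median-ratio scaling (limma adjusted p = 0.187).

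Echs1, the short chain enoyl-CoA hydratase, lay above the median. It was at 356, 379 and 285 CPM in WT and at 427, 407 and 412 CPM in TFEB-/-. All TFEB-/- libraries were above the WT libraries, with a log2 fold change of 0.30 (SE 0.12, limma adjusted p = 0.227), but the groups overlapped with median-ratio scaling. Hadh, the short chain hydroxyacyl-CoA dehydrogenase, varied most among the abundant genes. It was at 698, 489 and 555 CPM in WT and at 464, 490 and 775 CPM in TFEB-/-, with the third TFEB-/- library far above the other two. Hsd17b10, which also serves mitochondrial tRNA processing, had a relative log2 fold change of −0.12.

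The auxiliary enzymes that prepare unsaturated chains, Eci1 and Decr1, lay below the median. Eci1, an enoyl-CoA isomerase and the more abundant of the pair per kilobase, was at 269, 277 and 237 CPM in WT and at 244, 233 and 255 CPM in TFEB-/-. Decr1, the dienoyl-CoA reductase, was at 371, 362 and 316 CPM in WT and at 287, 320 and 349 CPM in TFEB-/-. Both overlapped on the deposited scale and did not with median-ratio scaling. Their log2 fold changes were then −0.33 and −0.37 (limma adjusted p = 0.109 and 0.155).

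Electron transfer from the dehydrogenases runs through Etfa and Etfb to Etfdh, the enzyme that passes electrons to ubiquinone, and all 3 lay below the median. Etfdh was lowest. It was at 580, 512 and 467 CPM in WT and at 413, 472 and 475 CPM in TFEB-/-, with a log2 fold change of −0.19 (SE 0.11, limma adjusted p = 0.323). With median-ratio scaling the groups did not overlap, and the change was −0.43 (SE 0.13, limma adjusted p = 0.106). Etfb was at 579, 674 and 465 CPM in WT and at 642, 532 and 632 CPM in TFEB-/-, which overlapped. Etfa had a relative log2 fold change of −0.33.

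In peroxisomes the genes were divided. Of 10, 6 lay below the median of all genes and 4 above, with a median relative log2 fold change of −0.07. The 4 above, Abcd2, Acox3, Acaa1a and Decr2, averaged 3.67 to 42.7 CPM in WT. The most abundant, Phyh, Scp2, Abcd3 and Hsd17b4, averaged 75 to 490 CPM in WT and lay below, as did the low Ehhadh and Pecr. The branches thus differ in level as well as place, and the part of each was not tested. For the 23 mitochondrial genes it was −0.24, with 21 below and Acad9 and Echs1 above. Without the first TFEB-/- library the mitochondrial median was −0.14. The peroxisomal median was −0.10 without the first WT library, −0.01 without the third, and −0.02 without the first TFEB-/- library. Genes are not replicates, so the medians of the branches were not compared by a test. The summed levels give the comparison by library. The peroxisomal genes came to 7.89, 8.38 and 8.38% of the mitochondrial sum in WT and to 8.52, 8.87 and 8.63% in TFEB-/-. Each TFEB-/- library was above each WT library, by means of 8.22 ± 0.283 and 8.67 ± 0.178%. Phyh and Scp2 weigh most in this sum, at means of 490 and 244 of 983 CPM in WT, so it does not speak for all 10 genes.

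Of the transporters that bring acyl-CoA into peroxisomes, Abcd3 was lower and Abcd2 higher than the median of all genes, neither past the test. Abcd3, the more abundant, was at 86, 82 and 73 CPM in WT and at 56, 80 and 82 CPM in TFEB-/-. On the deposited scale the first TFEB-/- library alone was low, and with median-ratio scaling all TFEB-/- libraries were below all WT libraries. For Abcd3 the relative log2 fold change was −0.40 (limma adjusted p of the change = 0.585). Abcd2 was at 4, 4 and 3 CPM in WT and at 5, 7 and 4 CPM in TFEB-/-, where rounding to whole CPM is a large part of each value. Its relative log2 fold change was 0.23, and −0.0038 without the second TFEB-/- library.

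Among the peroxisomal core enzymes, Hsd17b4 lay farthest below the median of all genes and Acox3 farthest above. Hsd17b4 (ENSMUSG00000024507), the D-bifunctional protein that hydrates and dehydrogenates very long and branched chains, was at 83, 72 and 70 CPM in WT and at 62, 60 and 64 CPM in TFEB-/-. All TFEB-/- libraries were below all WT libraries. The log2 fold change was −0.27 (SE 0.08, limma adjusted p = 0.149). With median-ratio scaling the libraries were at 81.6, 77.0 and 85.6 against 52.4, 59.0 and 60.2, and Hsd17b4 fell by 0.51 on the log2 scale (limma adjusted p = 0.0275). With 1 library left out as well, it passed only without the second WT library (limma adjusted p = 0.0483). It did not pass with median-ratio scaling and the replicate number as a block (limma adjusted p = 0.0555).

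Acox3, an acyl-CoA oxidase of branched chains, was at 22, 21 and 18 CPM in WT and at 33, 27 and 26 CPM in TFEB-/-. All TFEB-/- libraries were above all WT libraries on both scales. The log2 fold change was 0.48 (SE 0.13, limma adjusted p = 0.117) and 0.25 with median-ratio scaling (limma adjusted p = 0.179). Scp2, a thiolase and sterol carrier and the most abundant core gene per kilobase, was at 258, 257 and 218 CPM in WT and at 265, 269 and 297 CPM in TFEB-/-. Its groups were apart on the deposited scale only, and its relative log2 fold change was −0.05, or 0.053 without the first TFEB-/- library. Acaa1a, a peroxisomal thiolase, and Ehhadh, the L-bifunctional protein, had relative log2 fold changes of 0.06 and −0.21. That of Acaa1a was −0.044 without the first WT library and −0.056 without the third TFEB-/- library. Acaa1a has a near-identical copy, Acaa1b, and overlaps Myd88, so its value is uncertain.

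**Figure D3:**
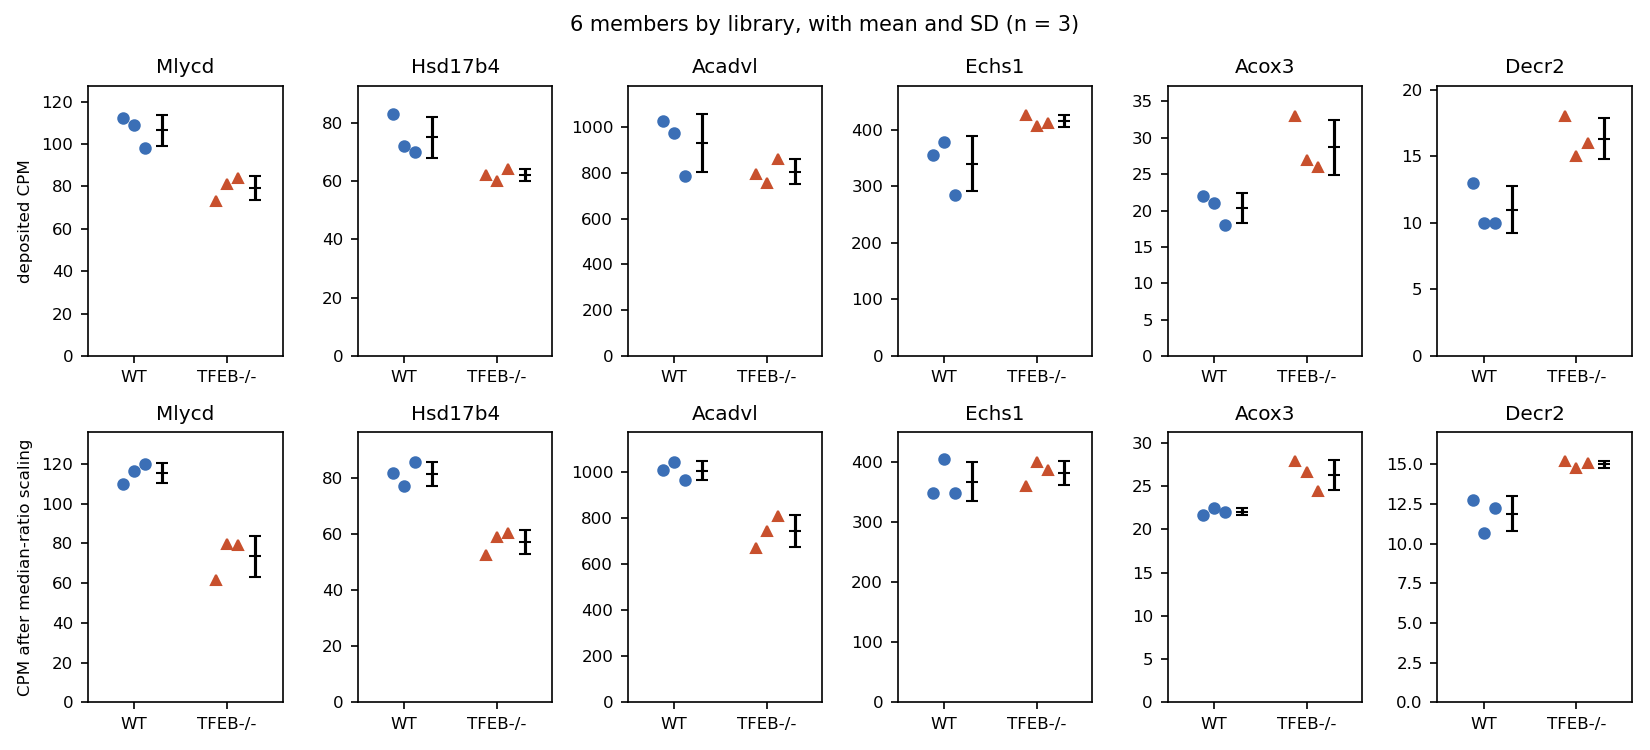
Levels of 6 genes in each library, in CPM as deposited (top) and after median-ratio scaling (bottom); circles are WT, triangles TFEB-/-, and bars the mean and SD. Mlycd and Hsd17b4 lie lower and Acox3 and Decr2 higher in all 3 TFEB-/- libraries in both rows, while Acadvl separates only below and Echs1 only above.

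Of the peroxisomal auxiliary enzymes and alpha-oxidation, Decr2 lay farthest above the median of all genes among the 35. It is the peroxisomal dienoyl-CoA reductase. It was at 13, 10 and 10 CPM in WT and at 18, 15 and 16 CPM in TFEB-/-. The groups were apart on both scales, with log2 fold changes of 0.56 (SE 0.14, limma adjusted p = 0.0997) and 0.33 (SE 0.11, limma adjusted p = 0.134). Phyh was at 495, 544 and 430 CPM in WT and at 461, 488 and 531 CPM in TFEB-/-, with full overlap. Pecr, a trans-enoyl-CoA reductase, was at 8 to 10 CPM in all libraries, with a relative log2 fold change of −0.08, or 0.011 without the third WT library.

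Eci2 and Acad11, which were kept apart from both branches, lay below the median of all genes. Eci2, an enoyl-CoA isomerase and the more abundant per kilobase, was at 143, 136 and 114 CPM in WT and at 128, 127 and 138 CPM in TFEB-/-. Acad11, an acyl-CoA dehydrogenase, was at 178, 143 and 133 CPM in WT and at 119, 136 and 134 CPM in TFEB-/-. Both overlapped on the deposited scale and did not with median-ratio scaling, where Acad11 changed by −0.45 (SE 0.13, limma adjusted p = 0.0938).

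The summed share of the 35 genes in the libraries was lower in TFEB-/-. Of all CPM outside the mitochondrial genome, the 35 genes took 2.06, 2.10 and 2.10% in WT and 1.64, 1.80 and 1.88% in TFEB-/-, means of 2.08 ± 0.0251 and 1.77 ± 0.126%. All TFEB-/- libraries were below all WT libraries, and the first TFEB-/- library was lowest. On chromosome 1, 5 adjacent pseudogenes (24612775 to 24616197) took 3.99 to 7.41% of a library. Leaving these out as well gave 2.27 ± 0.0531 and 1.92 ± 0.165%, again with no overlap. By that measure the mitochondrial genes took 2.01, 2.05 and 2.10% in WT and 1.56, 1.81 and 1.81% in TFEB-/-, also apart. The peroxisomal genes took 0.158, 0.172 and 0.176% in WT and 0.133, 0.161 and 0.156% in TFEB-/-, which overlapped. On the deposited scale, which counts mitochondrial transcripts in the total, the summed CPM of the 35 genes overlapped, at 11637 to 14235 in WT and 12548 to 14073 in TFEB-/-. The third WT library was the lowest of its group for 21 of the 23 mitochondrial genes there, and for 7 of 23 with median-ratio scaling. With that scaling the first TFEB-/- library was the lowest of its group for 17 of 23, against 8 of 23 on the deposited scale.

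**Figure D4:**
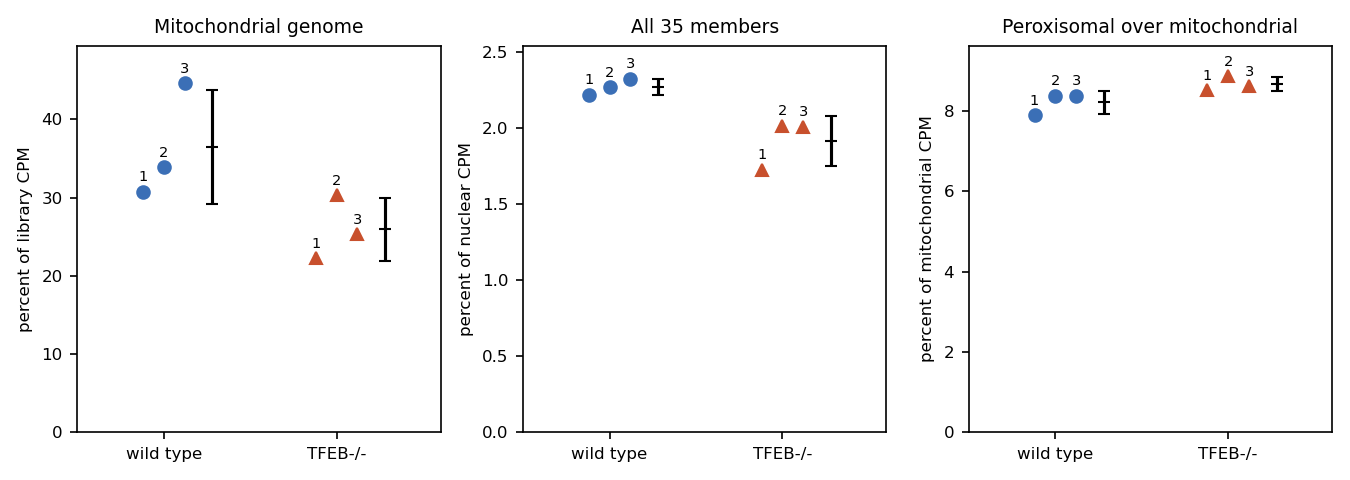
Transcripts of the mitochondrial genome as a percent of the library (left), the 35 genes as a percent of CPM outside the mitochondrial genome and the 5 pseudogenes (middle), and the peroxisomal as a percent of the mitochondrial sum (right); numbers are replicates and bars the mean and SD. In the middle panel the WT libraries sit at 2.22 to 2.32% and the TFEB-/- libraries at 1.73 to 2.01%.

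Genes of like abundance were set side by side. Among genes at 200 CPM or more, the 483 of the whole table had a median log2 fold change of 0.18 and the 19 of the pathway one of −0.03. Between 50 and 200 CPM the values were 0.25 for 1537 genes and −0.16 for 7 of the pathway. Between 10 and 50 CPM they were 0.24 for 4526 genes and 0.34 for the 5 of the pathway, and under 10 CPM 0.23 for 5891 genes and 0.13 for 4.

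Ratios within a library, which no scaling changes, did not pass a test for any of 4 pairs. Cpt1a over Cpt1b was 0.0274 ± 0.00472 in WT and 0.0298 ± 0.00104 in TFEB-/-. Hadha over Hadhb was 0.805 ± 0.0540 and 0.894 ± 0.121, and Etfa over Etfb was 0.983 ± 0.0904 and 0.867 ± 0.104. Ehhadh over Hsd17b4, the bifunctional enzymes, was 0.102 ± 0.00584 and 0.129 ± 0.0432. The exact two-sided permutation p was 0.4 for 3 pairs and 0.2 for Etfa over Etfb, each 0.4 after adjustment over the 4 pairs, where 0.1 is the smallest p possible. With 1 library left out, the log2 difference of Ehhadh over Hsd17b4 ran from 0.04, without the first TFEB-/- library, to 0.50, without the third, around 0.29. That of Cpt1a over Cpt1b ran from 0.03 to 0.27 around 0.13, that of Hadha over Hadhb from 0.07 to 0.26 around 0.14, and that of Etfa over Etfb from −0.28 to −0.12 around −0.18.

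Other genes of the pathway, taken from lists of shuttle, activation and peroxisome genes, showed 0 past the test in either direction on the deposited scale, by limma, in any list. At an unadjusted p below 0.05 (limma), 21.1% of all genes were higher and 2.3% lower. Of the 12 genes listed with the mitochondrial branch, 0 were. Of the 10 tested peroxisomal genes 3 were higher and 1 lower, and of the 19 tested assembly genes 1 was higher. The 12 listed with the mitochondrial branch were Slc25a20, Acsl1, Acsl3, Acsl4, Acsl5, Acsl6, Cpt1c, Acadsb, Acat1, Ech1, Acaca and Acacb. Not all of these act in mitochondria. Their median relative log2 fold change was −0.26, with 10 below the median of all genes. Acsl1, the main acyl-CoA synthetase of heart, was at 724, 535 and 591 CPM in WT and at 475, 505 and 500 CPM in TFEB-/-, all TFEB-/- libraries below the WT libraries. Slc25a20, the carnitine carrier, was at 140, 145 and 142 against 133, 134 and 168 CPM. The peroxisomal genes lay at −0.17 with 7 of 10 below. The peroxisome assembly genes lay at −0.14 with 13 of 19 below. With median-ratio scaling 0 of these passed the test in each list, by limma, and at an unadjusted p below 0.05 the lower ones numbered 5, 2 and 3, where 9.79% of all genes were lower.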

How the data were processed

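The authors deposited 1 table of 46517 entries with a score per gene and library, taken from its name to be kallisto CPM, rounded to whole numbers; library sums ran from 999505 to 999655. Per the submitters' processing notes, GRCm38 was the build and kallisto and other tools were named, with no statement of which made which value. The labels' read totals exceed what 6 libraries could hold, so depth is unknown and no counting interval can be given. Per the labels' protocols, TruSeq Stranded mRNA libraries were used, and how strand entered the counting is not given in the sources used here. Reads of genes that overlap on opposite strands may be mixed: Echs1 with Paox, Crat with Dolpp1, Acadvl with Dvl2 and Acaa1a with Myd88, and Scp2 overlaps Podn on the same strand. In WT, mt-Atp6 stood 12.6-fold above mt-Atp8 and mt-Nd4 7.93-fold above mt-Nd4l, though each pair shares a transcript, so the values look not scaled by length.

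Names turned to dates (26) were restored and 303 missing names replaced by IDs; 46005 of the table's IDs matched GENCODE M21, and summing left 46450 symbols. Genes at 1 CPM or more in 3 or more libraries were tested with limma 3.58.1 (R 4.3.3) on log2(CPM + 0.5) with a variance trend and Benjamini-Hochberg adjustment over all 12437 genes. The fold change of low genes is understated on this scale. CPM per kb divides by transcript length from GENCODE. Single values were compared by exact permutation. Genes were named by rule: those past the test on either scale, and in each class the most abundant and the one farthest from the median of all genes, with Cpt1a, Acad9, Echs1, Hadha, Hadh, Abcd2, Acox3 and the other-pathway examples named beyond it after their values were seen. The 35 genes, lists and tests were chosen with earlier results of these data known. Alternatives were another scaling, pseudocount, filter, variance model, a replicate block and leaving out each library.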

Additional observations from a re-analysis of the deposited data

How the results depend on the processing

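Across 23 settings no gene of the pathway was called higher, beside 89 to 780 of all tested genes. The count called lower was 0 on the deposited scale, beside 65 of 12437 genes, and 2 with median-ratio scaling, beside 200. It was 3 with CPM recomputed without mitochondrial transcripts (Mlycd, Hsd17b4 and Acadvl), beside 188 of 12424 genes. With median-ratio scaling and a filter of 5 CPM it was 2, beside 220 of 8873 genes. With median-ratio scaling and a replicate block it was 1 (Mlycd), beside 121 of 12437. With median-ratio scaling and 1 library left out it was 0 to 1, beside 44 to 291 of all tested genes. Mlycd passed without TFEB-KO replicate 2, Hsd17b4 without WT replicate 2, and 0 without any of the other 4. These combinations of scaling with a left-out library, filter or block were chosen after seeing the data. Mlycd passed in 5 of 23 settings (limma adjusted p 0.0198 to 0.185), Hsd17b4 in 4 (0.0273 to 0.357) and Acadvl in 1 (0.0384 to 0.577). The log2 fold change of Tfeb lay between −2.05 and −1.65 when 1 library was left out, with limma adjusted p of 0.0604 to 0.116 for the 5 libraries whose loss ended the call (all but WT replicate 1), and was −1.85 with a replicate block (limma adjusted p = 0.112). The replicate numbers did not pair the libraries: same-numbered deviations from the group means correlated at 0.144, −0.0492 and 0.0883, and not every library correlated best with its own number. Under the block the counts of all genes were 159 higher and 26 lower in place of 487 and 65. The cause of these shifts was not tested.

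The relative median of the mitochondrial genes ran from −0.31 to −0.14 over its settings, the latter without TFEB-KO replicate 1, and that of the peroxisomal genes from −0.15, with Eci2 and Acad11 counted as peroxisomal, to −0.01, without WT replicate 3. Leaving out 1 library turned the direction of these relative log2 fold changes, given here with its range over libraries left out: Cpt1a −0.24 to 0.027, Acad12 −0.16 to 0.044, Abcd2 −0.0038 to 0.39, Acaa1a −0.056 to 0.22, Scp2 −0.11 to 0.053 and Pecr −0.14 to 0.011. With median-ratio scaling the ranges were Cpt1a −0.27 to 0.021, Acad9 −0.00019 to 0.18, Acad12 −0.18 to 0.036 (0.022 without TFEB-KO replicate 2), Acaa1a −0.075 to 0.20 (−0.067 without TFEB-KO replicate 3), Scp2 −0.12 to 0.044 and Pecr −0.16 to 0.0091. Rounding to whole CPM limits the genes of a few CPM.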
